A study of Mus musculus with 18 samples.

Results

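The effect of isoliensinine, a plant alkaloid, was measured over 3 backgrounds at once in MOVAS, a line of mouse aortic smooth muscle cells kept in culture. All 18 libraries of the series entered, 9 with isoliensinine and 9 without, and they were chosen by their sample titles. The isoliensinine groups were B_I, H_I and D_I, and each was set against the group without it, Blank (no treatment), H2O2 (hydrogen peroxide, an oxidant) and Dox (doxorubicin, an anthracycline that damages DNA). Each group had 3 libraries. The labels of H_I and D_I name isoliensinine alone, and they were taken as the isoliensinine arms of H2O2 and Dox from the matching form of the titles. Doses and durations of treatment were not given in the sources used here, and all groups come from a single cell line. The question was whether any gene shifts the same way with isoliensinine whatever the background, and the series as a whole concerns senescent smooth muscle cells and their clearance by natural killer (NK) cells.

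Isoliensinine is a bisbenzylisoquinoline alkaloid of lotus seeds. Senescent cells stop dividing, keep high levels of cell-cycle inhibitors such as p21 and secrete cytokines, proteases and matrix proteins. NK cells read stress ligands, such as those bound by the receptors NKG2D and DNAM-1, against major histocompatibility complex (MHC) class I on the target cell. Sterol synthesis genes are controlled together by the transcription factor SREBP2, and many lysosomal genes by TFEB.

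Library totals ran from 12859609 to 23284077 counts. Of 10 smooth muscle markers, 9 passed the expression filter; Acta2 (smooth muscle actin) ran from 357 to 1740 FPKM (reads scaled by gene length and library total) over the libraries, while Tagln (transgelin) had at most 0.432 FPKM and was at 0 in 1 library, and Myh11 (smooth muscle myosin) had at most 4.39 FPKM. NK and T lymphocyte markers summed to at most 2.77 FPKM in any library. B_I replicate 3 and Blank replicate 4 stood apart on the first principal component (23.5% of variance), with 3880 and 4510 CPM (counts scaled to library size) of Acta2 against at most 1180 CPM in the other libraries of B_I and Blank. H2O2 replicate 3 stood apart on the third component (9.95% of variance). The 18 markers of intestine and liver summed to 160 to 503 FPKM in H_I against 43.5 to 121 FPKM in H2O2, to 58 to 173 FPKM in B_I against 58.9 to 138 FPKM in Blank, and to 103 to 142 FPKM in D_I against 72.2 to 174 FPKM in Dox. The highest sum was in H_I replicate 1. At equal depth, 14733 to 15101 genes were detected in H_I against 13735 to 14148 in H2O2, and 14908 to 15005 in D_I against 15086 to 15362 in Dox.

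No gene passed the test for a shift with isoliensinine that the backgrounds share. In the additive model, which gives each gene a single isoliensinine effect beside the effects of the backgrounds, the quasi-likelihood test of edgeR, with p-values adjusted by the method of Benjamini and Hochberg, called 0 of 13375 tested genes (0%), and the smallest adjusted p was 0.9982. At an unadjusted p under 0.05 there were 551 genes (4.12%), of which 293 (2.19%) were estimated higher and 258 (1.93%) lower with isoliensinine. DESeq2 also called 0, with 684 genes under that unadjusted p, and limma on log2(FPKM + 1) called 0, with 489. The same fit called 4615 genes (34.5%) for the doxorubicin background, 2456 higher and 2159 lower than in the background without inducer, and 947 genes (7.08%) for the peroxide background, 319 higher and 628 lower. The median absolute log2 difference was 0.09 for isoliensinine, 0.34 for doxorubicin and 0.20 for peroxide.

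**Figure D1:**
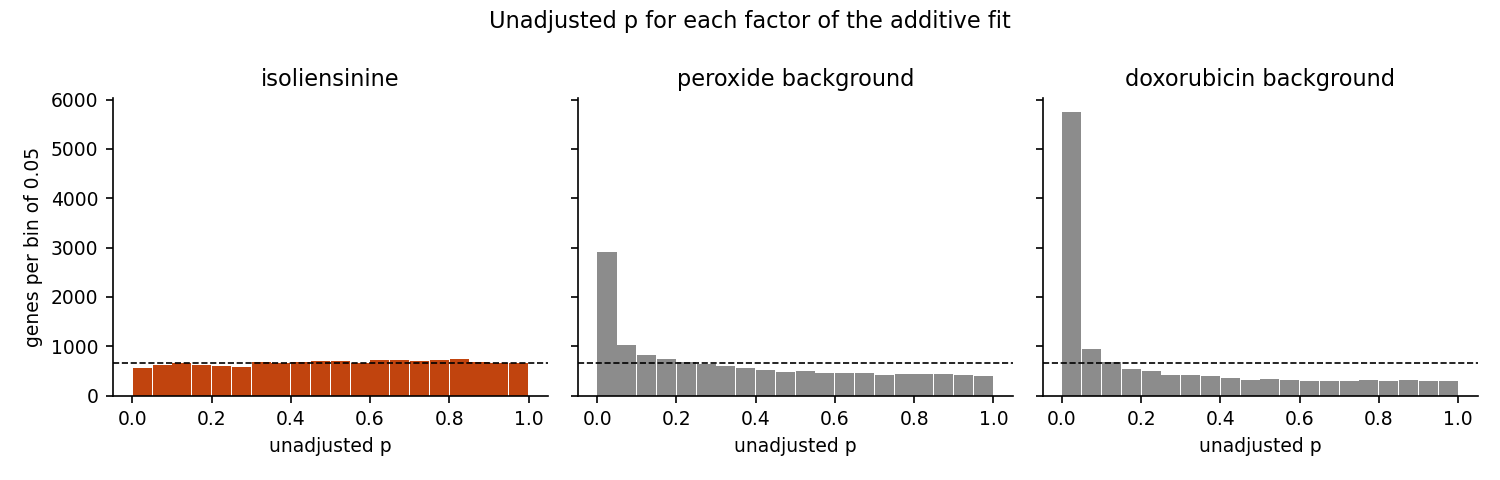
Number of genes (y axis) by unadjusted p in bins of 0.05 (x axis) for isoliensinine, the peroxide background and the doxorubicin background, all from the additive fit of 18 libraries. The dashed line is the height of equal bins; the lowest bin lies below it for isoliensinine (551 genes), while the other 2 panels rise at the left.

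Intervals around the pooled effect were narrow for well expressed genes. The median standard error (SE) of the log2 fold change was 0.13 over all tested genes and 0.082 over the 5722 genes with a mean of at least 5 FPKM in either arm. For 5646 of those 5722 genes (98.7%) the whole 95% interval lay within a 1.5-fold change in either direction, and for 5695 (99.5%) within a 2-fold change. Over all tested genes the shares were 67.2% and 80.5%. These intervals are per gene and not corrected for the number of genes.

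At 5 FPKM, 14 genes had an estimate beyond 1.5-fold and 0 beyond 2-fold. The lower one was Sprr1a, and the 13 higher ones were Ttr, Pigr, Agr2, Apoa1, Dmbt1, Lypd8, Serpina3k, Fabp1, Lgals4, 1810065E05Rik, Car1, Krt8 and Ceacam1. Of these 13, 6 are on the list of intestinal and liver markers, and most of the others are known from gut epithelium or liver (Pigr carries antibodies across mucosal epithelium, Fabp1 binds fatty acids in liver and gut). Their log2 difference of H_I from H2O2 ran from 0.94 to 2.43. The 5 FPKM filter used the larger of the 2 arm means, so a gene could pass through the arm where it was high. Of the 13, only Lypd8, 1810065E05Rik, Car1 and Krt8 reached 5 FPKM in both arms, and the rest passed through the isoliensinine arm alone. Apoa1, an apolipoprotein of liver and gut, had 27.9, 8.39 and 9.65 CPM in H_I against 4.37, 5.15 and 3.88 CPM in H2O2. In B_I it had 9.25, 6.65 and 3.59 CPM, against 9.4, 4.19 and 4.88 CPM in Blank. H_I replicate 1 was far above every other library, and the groups overlapped in the untreated background. The 18 tested markers of that list had a median log2 fold change of 0.70 pooled, 1.95 in H_I against H2O2, 0.10 in B_I against Blank and 0.23 in D_I against Dox; without the peroxide background the pooled median was 0.11, and without H_I replicate 1 and H2O2 replicate 3 it was 0.50. In bulk RNA, a change in the number of cells of a type and a change in RNA per cell cannot be told apart. The source of these transcripts in libraries of a single smooth muscle line was not tested, and neither was their part in other results.

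The genes with the smallest unadjusted p were chosen after their values were seen: 8 estimated higher and 8 lower, with the same sign in every background and at least 5 FPKM. All had an adjusted p of 0.9982. Among the 8 estimated higher were genes of sterol synthesis and the lysosome. Dhcr7, which encodes the reductase that makes cholesterol from 7-dehydrocholesterol (chromosome 7, 143376882 to 143402147 in the deposited table, build not given in the sources used here), had 217, 239 and 227 CPM in B_I against 183, 199 and 179 CPM in Blank. It had 224, 236 and 211 CPM in H_I against 221, 201 and 163 CPM in H2O2. In the doxorubicin background it had 168, 160 and 169 CPM in D_I against 134, 146 and 129 CPM in Dox. The groups did not overlap without inducer or with doxorubicin and overlapped with peroxide. The pooled log2 fold change of Dhcr7 was 0.26 (SE 0.058; 95% interval 0.13 to 0.38; unadjusted p = 0.0002094 by edgeR's quasi-likelihood test), or 0.28, 0.20 and 0.28 in the untreated, peroxide and doxorubicin backgrounds.

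Naglu, a lysosomal enzyme that degrades heparan sulfate, had 117, 127 and 122 CPM in B_I against 114, 110 and 116 CPM in Blank. With peroxide it had 88.5, 104 and 102 CPM in H_I against 81.2, 80.7 and 91.6 CPM in H2O2. With doxorubicin it had 98.9, 102 and 102 CPM in D_I against 81.8, 87.3 and 74.5 CPM in Dox. Only the peroxide groups overlapped (pooled log2 0.21, SE 0.057). Mcoln1, the lysosomal cation channel TRPML1, had a lowest, median and highest level of 100, 109 and 123 CPM in the 9 isoliensinine libraries against 83.7, 97.5 and 102 CPM in the 9 without it (log2 0.22, SE 0.062). Slc66a1, which exports cationic amino acids from lysosomes, had 16.9, 22 and 26.3 CPM with isoliensinine against 15, 18.1 and 21.6 CPM without (log2 0.30, SE 0.094). For both genes the 2 arms overlapped.

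The other genes of the 8 act elsewhere. Qdpr, which regenerates the cofactor tetrahydrobiopterin, had 24.1, 25.9 and 29.9 CPM (lowest, median, highest) with isoliensinine against 16.9, 20.7 and 25.3 CPM without (log2 0.32, SE 0.086). Got1, the cytosolic aspartate aminotransferase, Tyk2, a Janus kinase of interferon receptors, and Limk2, a kinase that phosphorylates cofilin, had pooled log2 fold changes of 0.23, 0.26 and 0.19. Unadjusted p-values of these 4 genes ran from 0.0011 for Qdpr to 0.003246 for Limk2.

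Sprr1a, a small proline-rich protein of the cornified envelope that is also induced by injury in other tissues (chromosome 3, 92391259 to 92393202), had the smallest unadjusted p of all tested genes, 0.0001135. Levels were 0.233, 0.129 and 0.385 CPM in B_I against 0.498, 0.37 and 0.301 CPM in Blank. They were 2.07, 3.21 and 1.42 CPM in H_I against 3.95, 2.23 and 5.13 CPM in H2O2, and 13.9, 13.6 and 12 CPM in D_I against 27.2, 31.6 and 23.4 CPM in Dox. Its groups separated with doxorubicin and overlapped in the other backgrounds, and B_I and Blank both lay under 1 CPM. The log2 fold change was -0.89 pooled (SE 0.19; 95% interval -1.28 to -0.49; edgeR adjusted p = 0.9982), -0.65 in B_I, -0.74 in H_I and -1.06 in D_I.

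Safb and Ewsr1, also estimated lower, encode RNA-binding proteins. Safb, which binds chromatin scaffolds and RNA, had 38.1, 47.2 and 40.9 CPM in B_I against 43.1, 47 and 63.6 CPM in Blank, and 34, 37.4 and 36.2 CPM in H_I against 47.2, 42 and 61.6 CPM in H2O2. In D_I it had 40, 49.7 and 38.5 CPM against 53.9, 49.8 and 68.3 CPM in Dox. The groups overlapped only without inducer, and those with doxorubicin touched (pooled log2 -0.40, SE 0.094). Ewsr1 had 44.9, 55.8 and 63.5 CPM (lowest, median, highest) with isoliensinine against 57, 66.8 and 72.5 CPM without, and the arms overlapped. It had a pooled log2 fold change of -0.24 (SE 0.069).

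Tacc1, a coiled-coil protein of the centrosome, had 59.1, 55.4 and 67.6 CPM in B_I against 70.5, 81.5 and 93.7 CPM in Blank. In H_I it had 61.9, 70.2 and 68.6 CPM, against 82.7, 89 and 83.5 CPM in H2O2. These groups did not overlap, but D_I (77.4, 69 and 74.3 CPM) and Dox (82.3, 68 and 95.5 CPM) did (pooled log2 -0.31, SE 0.075). Cd44, the receptor for hyaluronan in the matrix, had 61.1 to 75.3 CPM in H_I against 77.2 to 88.2 CPM in H2O2 and overlapped in the other backgrounds. Cd44, Osmr, the oncostatin M receptor, and Sap18b, whose reads may be shared with its near copy Sap18, had pooled log2 fold changes of -0.23, -0.33 and -0.25.

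**Figure D2:**
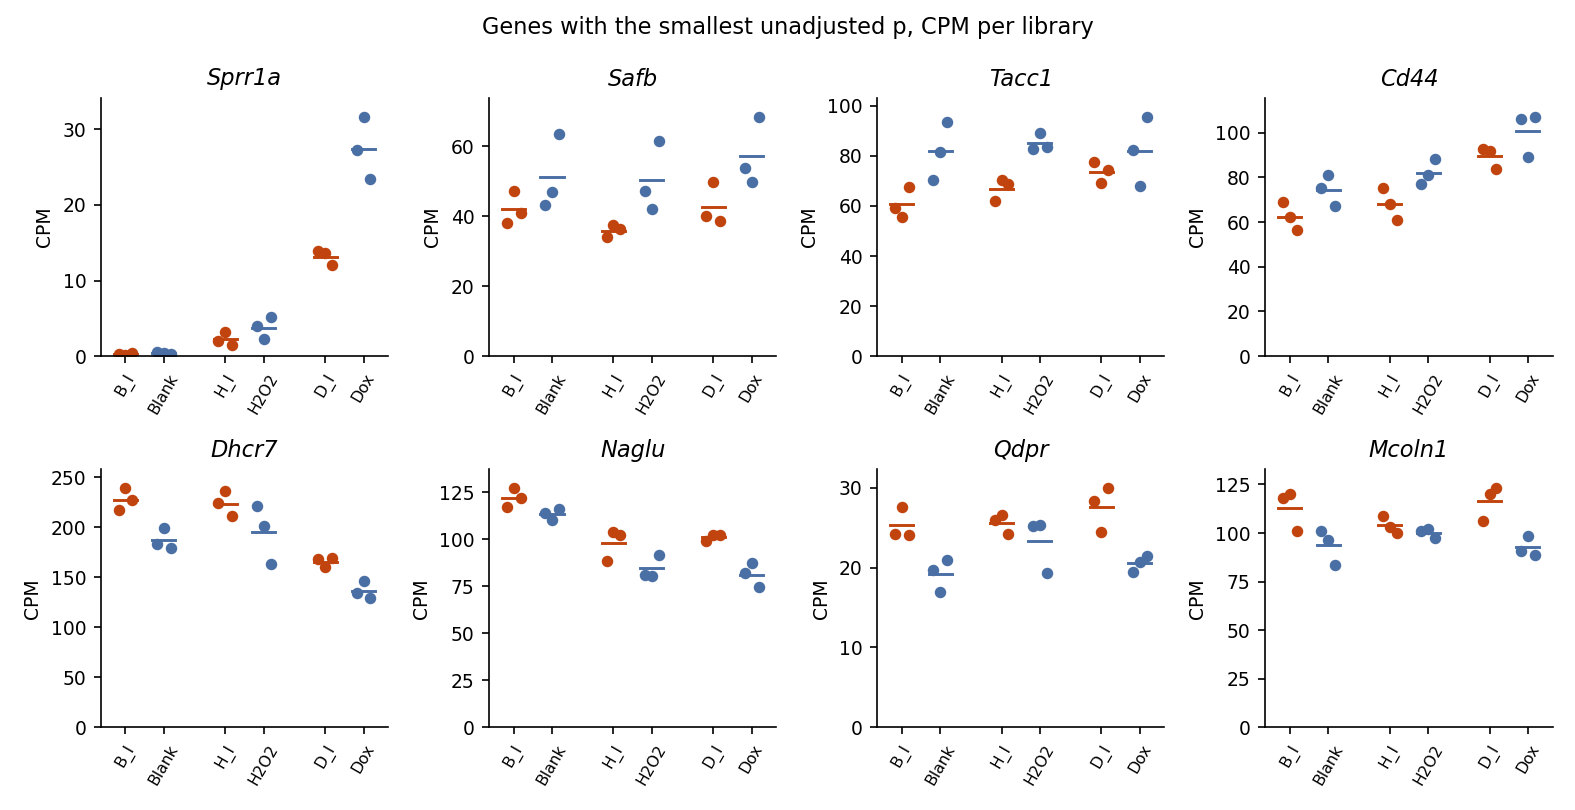
CPM per library (points) and group mean (lines) for 8 of the genes with the smallest unadjusted p, with isoliensinine groups in red left of the matching group without it in blue; all axes start at 0. Sprr1a differs far more between backgrounds than with isoliensinine, and the D_I and Dox points separate for Sprr1a, Dhcr7, Naglu, Qdpr and Mcoln1.

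Replicates that do not overlap, in the same direction in every background, were found for 3 genes (0.0224% of those tested), named here after their values were seen. Sft2d1, a vesicle transport protein, had 5.76, 8 and 7.25 CPM in B_I against 4.17, 4.62 and 4.43 CPM in Blank. It had 5.68, 6.29 and 9.38 CPM in H_I against 4.65, 5.27 and 5.2 CPM in H2O2, and 9.09, 8.93 and 7.27 CPM in D_I against 6.11, 6.89 and 6.83 CPM in Dox. By the rule that chose Sft2d1, all its isoliensinine libraries lay above those without it within a background (pooled log2 0.50, SE 0.14; unadjusted p = 0.001157 and adjusted p = 0.9982 by edgeR). The unadjusted p is not independent of that choice. Colgalt1, which adds galactose to collagen, had a pooled log2 fold change of 0.14 (SE 0.048), and Rrp1, a ribosomal RNA processing factor, of -0.13 (SE 0.048).

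Calls appeared in the pooled effect when the 4 libraries named above (B_I replicate 3, Blank replicate 4, H_I replicate 1 and H2O2 replicate 3) were left out together, a choice made after seeing the data. In these 14 libraries edgeR called 5 of 13456 genes (0.0372%), each with an adjusted p of 0.03724. Dpp7, a lysosomal dipeptidyl peptidase, and Chac1, which degrades glutathione and is a target of the integrated stress response, were higher with isoliensinine (log2 0.36 and 0.37), and Osmr and Hnrnpa1, a splicing factor with many close copies in the genome, were among the 3 lower (log2 -0.39 for both). In all 18 libraries the pooled values of Dpp7, Chac1 and Hnrnpa1 were 0.36, 0.20 and -0.32, with an adjusted p of 0.9982. Chac1 had 171, 163 and 168 CPM in H_I against 163, 147 and 237 CPM in H2O2, with H2O2 replicate 3 the highest, and its log2 difference there was -0.12, or 0.075 without H_I replicate 1 and H2O2 replicate 3. Leaving out only B_I replicate 3 and Blank replicate 4, or only H_I replicate 1 and H2O2 replicate 3, gave 0 calls.

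Correlations between the effects in single backgrounds were weak or negative, and varied with the measure and the genes used. Their sign changed with single libraries for the pairs that include the untreated background. The log2 fold change had the same sign in all 3 backgrounds for 3083 genes (23.1%), 1584 higher and 1499 lower, and for 1173 of the genes at 5 FPKM (20.5%). Across these 5722 genes, Pearson's r between effects was 0.02 for the untreated and peroxide backgrounds, 0.09 for untreated and doxorubicin and -0.25 for peroxide and doxorubicin. These pairs share no library but share the normalization, and genes are not independent replicates. Leaving out 1 library moved these values: the first ran from -0.28 without B_I replicate 1 to 0.27 without B_I replicate 3, the second from -0.096 without Blank replicate 2 to 0.25 without Blank replicate 4, and the last was -0.02 without H2O2 replicate 3. Over 30 alternative settings, r for peroxide and doxorubicin ran from -0.361 to -0.023. For peroxide and doxorubicin, Spearman's rank correlation across the genes at 5 FPKM was -0.336. Over all tested genes Pearson's r for that pair was 0.011 and Spearman's correlation -0.125. Genes with an unadjusted p under 0.05 in the 12 libraries of a pair of backgrounds were looked up in the third: the sign was the same for 352 of 601 genes (58.6%, against 53% of all genes) in the untreated background, 252 of 660 (38.2%, against 42.9%) in the peroxide background and 211 of 417 (50.6%, against 47.2%) in the doxorubicin background. Of the variance of log2 CPM, isoliensinine held 5.84% on 1 degree of freedom, background 25.4% on 2, their interaction 11.1% on 2 and differences within groups 57.7% on 12, which is 4.81% per degree of freedom.

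**Figure D3:**
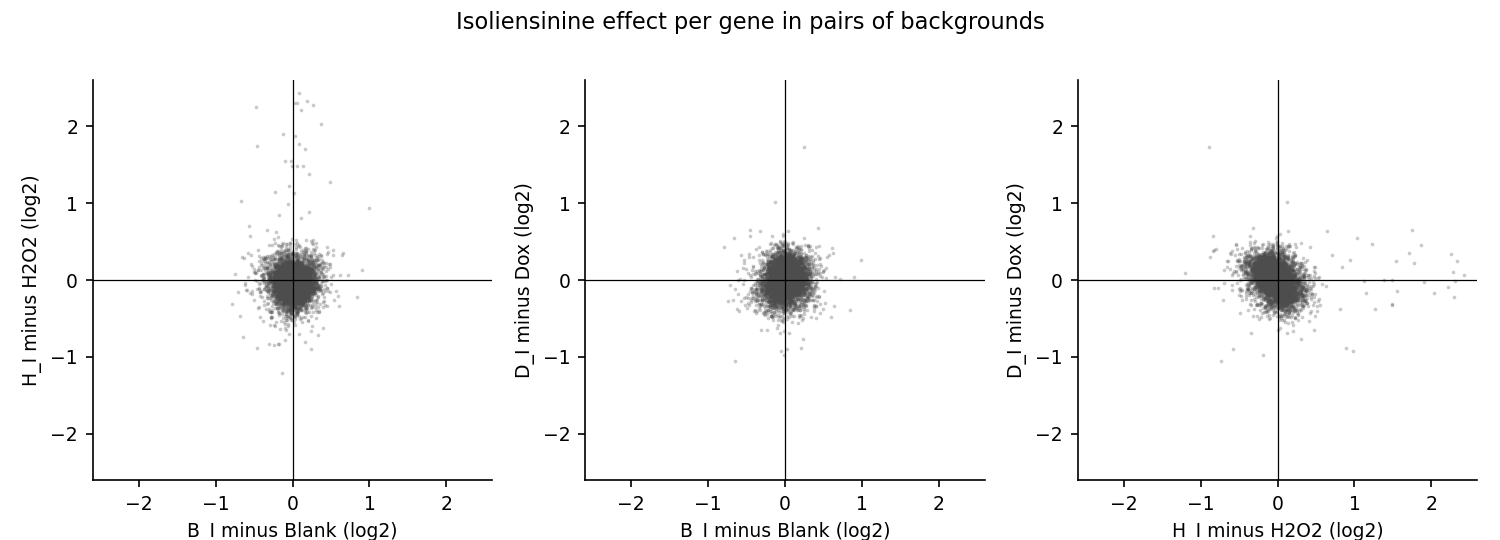
Each point is a gene with at least 5 FPKM; the axes are the log2 fold changes with isoliensinine in 2 backgrounds (B_I minus Blank, H_I minus H2O2, D_I minus Dox). The clouds are round or, for peroxide and doxorubicin (r of -0.25), slanted down, and the points far along the H_I axis include the intestinal and liver genes.

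Within each background, edgeR with the spread shared over all groups called 0 genes. Unadjusted p was under 0.05 for 640 genes (4.79%) in B_I against Blank, 915 (6.84%) in H_I against H2O2 and 556 (4.16%) in D_I against Dox, and the smallest adjusted p-values were 0.1101, 0.2339 and 0.1056. DESeq2 called 1, 81 and 18 genes in the same order, 73 of the 81 higher in H_I, and limma on log2(FPKM + 1) called 0 in each. Without Blank replicate 4 edgeR called 4 genes in the untreated and 4 in the doxorubicin background, and without H2O2 replicate 3 it called 10 in the peroxide and 1 in the doxorubicin background. A fit of the 6 libraries of D_I and Dox alone, added after seeing the data, called 263 of 12589 genes (2.09%), 109 higher and 154 lower, while such fits called 0 in the other backgrounds, with 219 genes (untreated) and 779 genes (peroxide) at an unadjusted p under 0.05. Of the 16 genes with the smallest pooled p, 5 were among the 263, 3 higher (Dhcr7, Naglu and Mcoln1) and 2 lower, Sprr1a included. The libraries of D_I and Dox also enter the pooled fit. Acta2 was lower in the fit of those 6 libraries (edgeR adjusted p = 1.792e-05), with 853, 891 and 1050 CPM in D_I against 2050, 1750 and 1710 CPM in Dox, yet its pooled log2 fold change was -0.39 (SE 0.34), with -0.01 in B_I and -0.19 in H_I. Without the 4 libraries that stood apart, the fit with the spread shared over all groups called 53, 58 and 184 genes in the untreated, peroxide and doxorubicin backgrounds.

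The test of whether the effect differs between backgrounds called 0 genes by edgeR, with 813 (6.08%) at an unadjusted p under 0.05; DESeq2 called 11, and limma 1 with a pseudocount of 1 and 2 with 0.1. Without B_I replicate 3, or without Blank replicate 4, edgeR called 1 gene, Egr1, and without the 4 libraries that stood apart it called 143. The 6 genes with the smallest interaction p and at least 5 FPKM in some group were Egr1, Junb, Mef2d, Rras2, Acss2 and Phlda1. For each, the replicates of a background lay fully above those of its match while those of another lay fully below. Choosing by interaction p favours such separation, and its share over all tested genes was not counted. Egr1 and Junb are immediate early transcription factors, made within minutes of a growth or stress signal. Egr1 had 198, 192 and 260 CPM in B_I against 316, 312 and 262 CPM in Blank, and 192, 209 and 202 CPM in H_I against 265, 233 and 277 CPM in H2O2. In D_I it had 286, 297 and 351 CPM, against 195, 220 and 215 CPM in Dox. The isoliensinine libraries were low in the first 2 backgrounds and high with doxorubicin, and the log2 fold changes were -0.45, -0.36 and 0.57 (interaction adjusted p = 0.07312 by edgeR, 3.873e-05 by DESeq2, 0.00104 by edgeR with no filter on low counts and 0.0007978 by edgeR with a replicate block). That block was by replicate number and fitted Blank replicate 4, the only library with its number, exactly.

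Junb had 78.9, 83.4 and 93.1 CPM in B_I against 95.5, 99.5 and 95.6 CPM in Blank, and 95.9, 96.3 and 103 CPM in H_I against 120, 101 and 144 CPM in H2O2. In D_I it had 108, 118 and 134 CPM against 82.7, 94.3 and 79.9 CPM in Dox. It followed the order of Egr1, with an overlap in the peroxide background. Mef2d, a transcription factor of muscle and neurons, had 69.6, 73.6 and 67.1 CPM in H_I against 98.6, 83.7 and 99 CPM in H2O2, and 94.4, 104 and 94.4 CPM in D_I against 80.8, 86.9 and 83.3 CPM in Dox. Rras2, a Ras-related GTPase, had 49.1, 50.1 and 45.6 CPM in B_I against 35.6, 35.4 and 37.3 CPM in Blank, and 86.6, 96.2 and 81.7 CPM in D_I against 105, 105 and 109 CPM in Dox. Both genes thus differed in opposite directions between those backgrounds, and in the remaining one the log2 difference was 0.08 for Mef2d (B_I minus Blank) and -0.14 for Rras2 (H_I minus H2O2).

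Acss2, which makes acetyl-CoA from acetate, had 58, 51.9 and 59.8 CPM in B_I against 39.7, 38.8 and 38.2 CPM in Blank, and 25.3, 22.9 and 19.7 CPM in D_I against 28.2, 29.3 and 28 CPM in Dox. Phlda1, a growth-factor-responsive gene, had 8.15, 8.52 and 8.02 CPM in B_I against 11.6, 12.3 and 12.2 CPM in Blank, and 12.1, 12.5 and 11.3 CPM in H_I against 7.97, 8.55 and 7.53 CPM in H2O2. The range of Phlda1 in H2O2 enclosed that in B_I, and the range in H_I enclosed that in Blank. In the remaining background the log2 difference was 0.08 for Acss2 (H_I minus H2O2) and -0.06 for Phlda1 (D_I minus Dox). By edgeR the interaction adjusted p of these genes other than Egr1 was 0.7339, and by DESeq2 it ran from 0.0274 for Mef2d to 0.03101 for Junb.

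**Figure D4:**
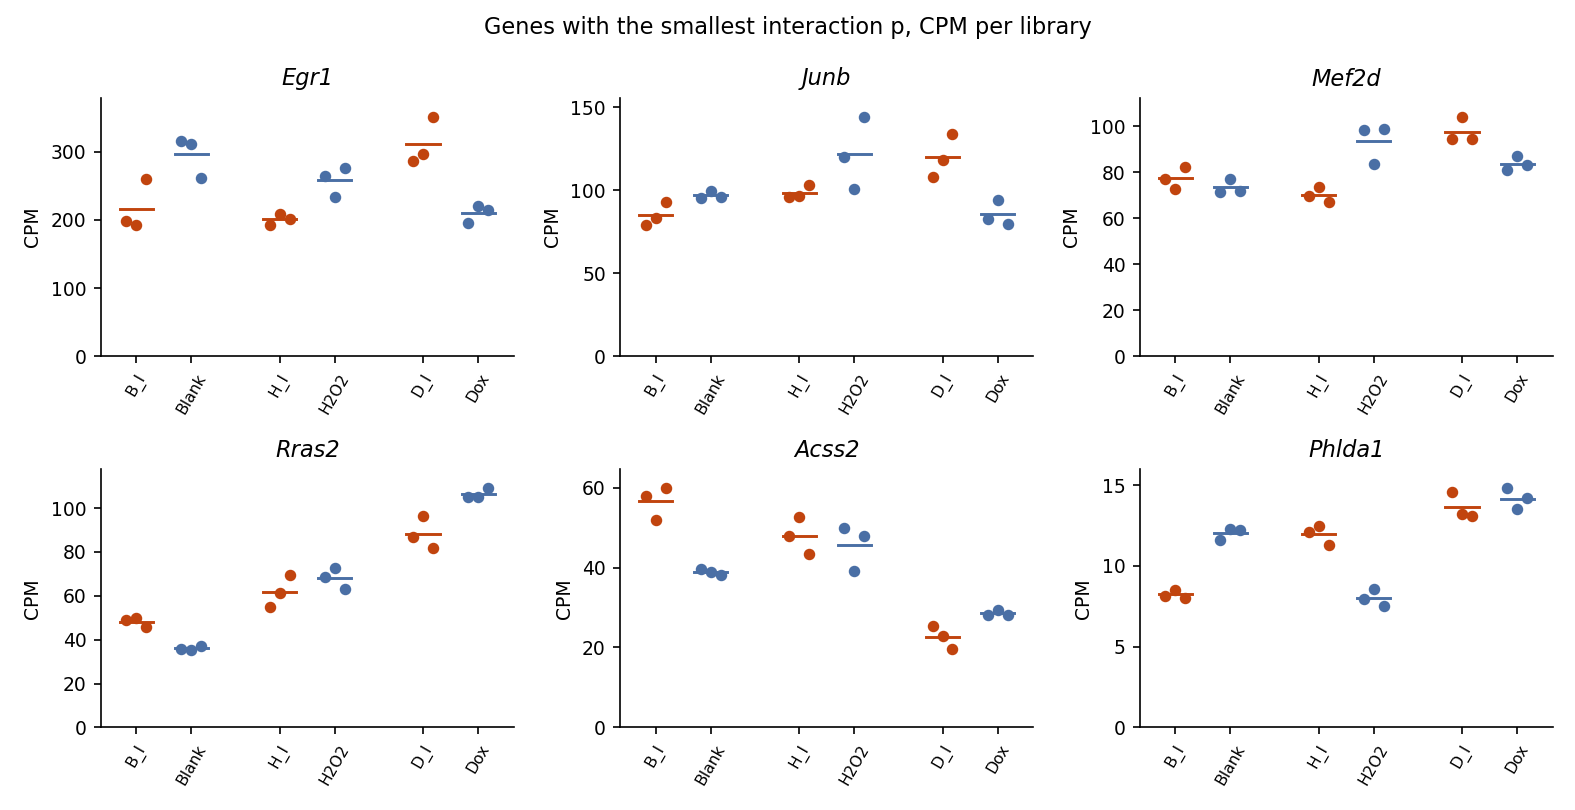
CPM per library (points) and group mean (lines) for the 6 genes with the smallest interaction p, with isoliensinine groups in red left of the matching group without it in blue and axes from 0. Egr1 lies lower in B_I and H_I than in Blank and H2O2 and higher in D_I than in Dox.

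Gene lists are described by counts and medians beside those of all tested genes. The median pooled log2 fold change of all tested genes was near 0, and 49.7% were estimated higher. At an unadjusted p under 0.05 by edgeR, 2.19% of them were estimated higher and 1.93% lower. In every background, 1584 of the 13375 tested genes were higher and 1499 lower. No member of any list was called. Leaving out 1 library in turn moved the median of 34 of the 36 lists by over 1.5 times at least once, the lysosomal list and the intestinal and liver markers being the exceptions, and turned the sign of 16 medians. Sterol synthesis and uptake had 27 tested members with a median of 0.13, and 96.3% were estimated higher, Scap being the exception. In the untreated, peroxide and doxorubicin backgrounds the medians were 0.15, 0.14 and 0.05. Dhcr7, Tm7sf2 and Lss (late steps of cholesterol synthesis), Mvk and Mvd (mevalonate pathway) and Acat2 (acetoacetyl-CoA synthesis) had an unadjusted p under 0.05, that is 6 of 27 against 2.19% of all genes for higher estimates, with pooled log2 fold changes from 0.16 to 0.29. Lss had 80.7, 73.3 and 47.2 CPM in B_I against 46.1, 55.3 and 38.2 CPM in Blank, and 77.5, 72.5 and 77.9 CPM in H_I against 74.7, 73.8 and 32.8 CPM in H2O2. The low library of H2O2 was replicate 3, and the B_I and Blank libraries overlapped. Over the list, the median deviation of members from their mean ran from 0.04 to 0.35 in B_I libraries against -0.13 to 0.19 in Blank, from 0.22 to 0.28 in H_I against -0.22 to 0.28 in H2O2, and from -0.26 to -0.25 in D_I against -0.34 to -0.25 in Dox. Each pair overlapped, and without the 4 libraries that stood apart the list's median was 0.062, and leaving out B_I replicate 1, Blank replicate 4 or H2O2 replicate 3 gave 0.079, 0.078 and 0.077.

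Lysosomal genes (35 tested) had a median of 0.08, with 77.1% estimated higher, and 12 members were higher and 0 lower in the estimates of every background. Their medians were 0.00 without inducer, 0.06 with peroxide and 0.21 with doxorubicin, and without the doxorubicin background the pooled median was 0.018. The median deviation of members from their mean ran from -0.09 to -0.03 in D_I libraries against -0.32 to -0.18 in Dox, with no overlap. This was not particular to the lysosomal list. D_I and Dox also separated for subunits of the proton pump V-ATPase (0.02 to 0.05 against -0.2 to -0.1). They did so in the other direction for mitochondrially encoded genes (-0.26 to -0.16 against 0.05 to 0.23) and contractile genes (-0.11 to -0.01 against 0.06 to 0.27). The cholesterol efflux, glycolysis and lymphocyte lists separated too. Naglu and Mcoln1 were among the 4 of 35 members with an unadjusted p under 0.05, each estimated higher, against 2.19% of all genes. Subunits of the V-ATPase, the proton pump of lysosomes (15 tested), had a median of 0.04, and 93.3% were estimated higher. Their medians were 0.06, 0.00 and 0.13 in the untreated, peroxide and doxorubicin backgrounds, and the pooled median ran from 0.030 without Dox replicate 1 to 0.10 without B_I replicate 3. Atp6v0a1, Atp6v0d1, Atp6v0e and Atp6ap1 had an unadjusted p under 0.05, with pooled log2 fold changes from 0.12 to 0.17. These are 4 of 15, against 2.19% of all genes for higher estimates.

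Mitosis genes (35 tested) had a median of -0.11 and 17.1% were estimated higher, with 0 higher and 11 lower in every background. The medians were -0.07, -0.04 and -0.26 in the untreated, peroxide and doxorubicin backgrounds. The pooled median was -0.052 without the doxorubicin background, -0.072 without Dox replicate 3 and -0.16 without the 4 libraries that stood apart. The median deviation of members from their mean overlapped in each pair. It ran from -0.32 to -0.18 in B_I libraries against -0.33 to -0.09 in Blank. In H_I it ran from -0.14 to -0.11 against -0.32 to -0.04 in H2O2, and in D_I from 0.21 to 0.36 against 0.32 to 0.59 in Dox. Mki67, a marker of dividing cells, had 18.5, 16.9 and 17.6 CPM in B_I against 28.8, 32.6 and 24.8 CPM in Blank, and 16, 16.7 and 15.5 CPM in H_I against 18.7, 19.9 and 13.8 CPM in H2O2. In D_I it had 37.7, 22.4 and 32.3 CPM against 48, 23.2 and 42 CPM in Dox. The groups separated only without inducer (pooled log2 -0.37, SE 0.13; edgeR adjusted p = 0.9982). Ttk, Cenpe (-0.44) and Incenp, which act at the kinetochore and spindle, also had an unadjusted p under 0.05. With Mki67 these were 4 of 35 members, against 1.93% of all genes for lower estimates. DNA replication and E2F targets (40 tested) had a median of -0.03.

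Senescence-associated secretory factors (37 tested) had a median of -0.07, with 1 higher and 11 lower in every background, the higher one being Igfbp2, which binds insulin-like growth factors. The median was -0.037 without H2O2 replicate 3 and -0.032 without the 4 libraries that stood apart. Cxcl12, Csf1, Timp1, Plau and Spp1 had an unadjusted p under 0.05, each estimated lower, that is 5 of 37 against 1.93% of all genes. Timp1, an inhibitor of matrix proteases, had 283, 272 and 246 CPM in H_I against 327, 300 and 348 CPM in H2O2, and 268, 249 and 276 CPM in D_I against 346, 344 and 305 CPM in Dox. In B_I (239, 274 and 350 CPM) and Blank (253, 234 and 394 CPM) its levels overlapped (pooled log2 -0.21, SE 0.090). Cxcl12, a chemokine that attracts lymphocytes, had 108, 114 and 119 CPM in D_I against 177, 174 and 177 CPM in Dox, but overlapped in the other backgrounds, where its log2 fold changes were -0.11 and 0.03. Extracellular matrix genes (42 tested) had a median of -0.09, and 16.7% were estimated higher. Their medians were -0.17, -0.03 and 0.03 in the untreated, peroxide and doxorubicin backgrounds, and the pooled median was -0.049 without B_I replicate 2 and -0.037 without Blank replicate 4. Interferon-stimulated genes (57 tested) had a median of -0.01 (-0.050 to 0.013 with 1 library left out, and -0.15 without the peroxide background). Of these, Eif2ak2, Igtp, Xaf1 and Ifitm3 had an unadjusted p under 0.05, each estimated lower, that is 4 of 57 against 1.93% of all genes.

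Lists tied to recognition by NK cells had medians near 0, and with 1 library left out the sign turned for activating ligands, MHC class I, chemokines and death receptors. Ligands that activate NK cells (11 of 21 tested) had a median of -0.03 with 0 members at an unadjusted p under 0.05, and the member with the same sign in every background was Icam1, an adhesion molecule at 0.323 to 2.21 CPM with isoliensinine against 0.225 to 1.94 CPM without. Pvr, a ligand of DNAM-1, had a lowest, median and highest level of 50.7, 70.9 and 95.8 CPM in the 9 isoliensinine libraries against 58.2, 66.5 and 83.3 CPM in those without it. Its pooled log2 fold change was 0.03 (95% interval -0.10 to 0.16). Ulbp1, a ligand of NKG2D, had a log2 fold change of -0.25 (95% interval -0.58 to 0.09) and overlapped in every background, with 20.1, 17.6 and 14.1 CPM in B_I against 33.1, 38.7 and 12.8 CPM in Blank. MHC class I genes (21 tested) had a median of -0.01. B2m, the invariant subunit, was at 0.02 pooled (interval -0.14 to 0.18) and H2-K1, a heavy chain with close copies, at 0.11 (interval -0.02 to 0.23). The fit of D_I and Dox alone, which called 2.09% of its genes, called both higher (log2 0.32 and 0.26, edgeR adjusted p = 0.01359 and 0.0357). In such fits B2m and H2-K1 were at -0.09 and -0.05 without inducer, and at -0.16 and 0.11 with peroxide. Inhibitory and checkpoint ligands (15 tested) had a median of 0.07, and Cd274, which encodes PD-L1, had 1.87, 1.61 and 1.7 CPM in D_I against 0.647, 1.26 and 0.588 CPM in Dox, which did not overlap, but overlapped in the other backgrounds and at 0.33 pooled (interval -0.51 to 1.17). Death receptors and partners (14 tested) had a median of -0.06, and chemokines that attract NK cells (9 tested) of -0.05, or -0.16 without H_I replicate 1 and H2O2 replicate 3. Ccl5 differed in opposite directions, with 2.29, 1.54 and 1.89 CPM in H_I against 0.987, 0.744 and 1.16 CPM in H2O2, and 5.73, 4.35 and 5.06 CPM in D_I against 10.3, 10.4 and 7.88 CPM in Dox.

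**Figure D5:**
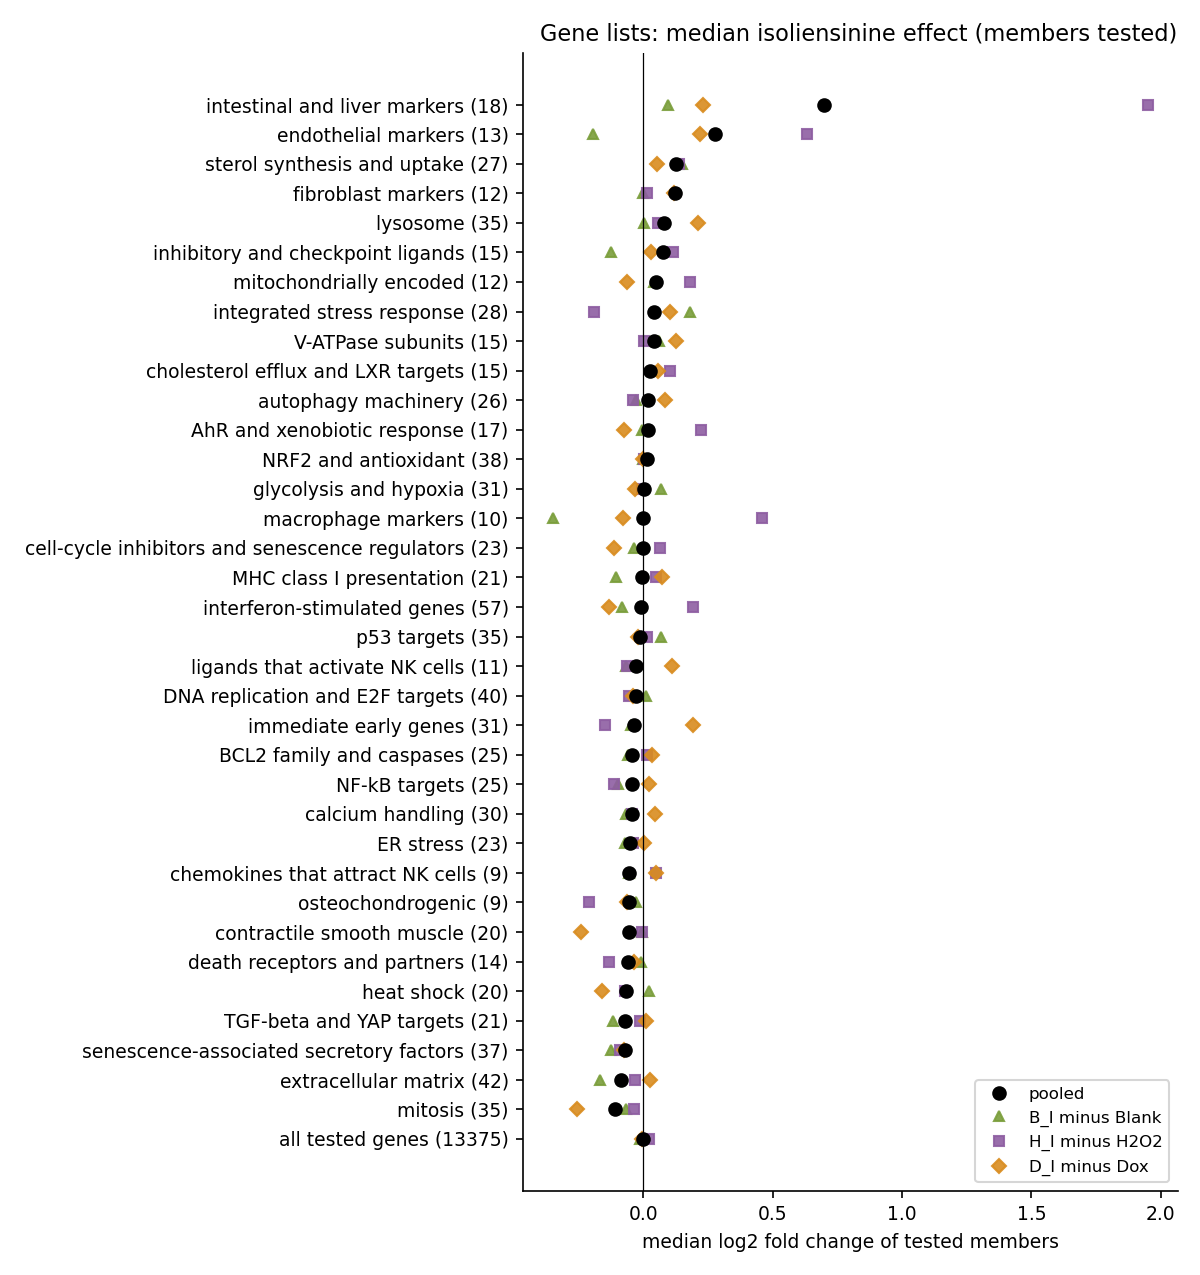
Median log2 fold change with isoliensinine (x axis) of the tested members of each list (number in brackets) with at least 9 tested, pooled (black) and in each background. Medians other than those of the intestinal and liver markers (pooled 0.70) and endothelial markers (pooled 0.28) lie within 0.13 of 0 when pooled, and H_I minus H2O2 stands at 1.95 for the intestinal and liver markers.

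Senescence and stress genes also gave pooled intervals around 0. Cdkn1a, which encodes p21, had 128, 128 and 94.8 CPM in B_I against 110, 97.2 and 90.5 CPM in Blank, 230, 232 and 210 CPM in H_I against 231, 231 and 205 CPM in H2O2, and 493, 426 and 432 CPM in D_I against 422, 530 and 416 CPM in Dox. Its level differed between backgrounds and overlapped within each (pooled log2 0.07, SE 0.072; 95% interval -0.08 to 0.22). Cdkn2a, which encodes p16 and ARF, was at -0.01 (interval -0.20 to 0.18), Glb1, the lysosomal beta-galactosidase, at 0.08 (interval -0.05 to 0.21), and Lmnb1, the nuclear lamin lost in senescence, at -0.15 (interval -0.34 to 0.04). The fit of D_I and Dox alone called Lmnb1 lower (log2 -0.41, edgeR adjusted p = 0.03379) and did not call Cdkn1a, Cdkn2a, Glb1 or Hmox1. In such fits Lmnb1 was at -0.21 without inducer and 0.16 with peroxide. Hmox1, the haem oxygenase induced by oxidants, had 163, 177 and 139 CPM in B_I against 126, 137 and 135 CPM in Blank and 259, 250 and 229 CPM in D_I against 206, 223 and 191 CPM in Dox. In H_I it had 216, 203 and 178 CPM, against 224, 223 and 214 CPM in H2O2. The log2 fold changes of Hmox1 were 0.27 without inducer, 0.25 with doxorubicin and -0.14 with peroxide, and 0.13 pooled (interval -0.02 to 0.27). Ddit3, a stress-induced transcription factor, and Tfeb were at 0.03 and 0.02, and Ccl2 and Hmgcs1, with mean levels under 12 CPM, at 0.01 and 0.15. Myh11 was at 0.64 (interval -0.33 to 1.62), with 31.7, 12.2 and 10.6 CPM in H_I against 2.19, 1.3 and 6.76 CPM in H2O2; H_I replicate 1, which also held the most intestinal and liver transcripts, was the highest. Il6, a secretory cytokine, did not pass the expression filter.

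The remaining lists with at least 9 tested members had pooled medians between -0.07 and 0.05, apart from fibroblast markers (12 tested) at 0.12 and endothelial markers (13) at 0.28. Without H_I replicate 1 these were at 0.032 and 0.10, and without H_I replicate 1 and H2O2 replicate 3 the endothelial median was 0.088. The p53 targets (35 tested) were at -0.01, NRF2 and antioxidant genes (38) at 0.01, the integrated stress response (28) at 0.04, ER stress (23) at -0.05, heat shock (20) at -0.07, autophagy machinery (26) at 0.02 and contractile smooth muscle (20) at -0.06. Immediate early genes (31) had medians of -0.05 without inducer, -0.15 with peroxide and 0.19 with doxorubicin, and -0.04 pooled.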

How the data were processed

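RNA was sequenced from MOVAS cells in 18 libraries. The deposited table gives whole-number read counts per gene, unnormalized, per the file headers, and FPKM values made by the authors, of which 100% equalled the count scaled by gene length and column total within a relative difference of 1e-06. Per the submitters' processing notes, HTSeq 0.9.1, HISAT2 2.1.0 and fastp 0.22.0 were used, in roles that are not stated; a genome build was not given in the sources used here. The table holds 21959 genes, of which 51 (0.0187% of counts) have no symbol, and 0 columns of other series. Replicates are biological per the series' design text; counts of any pair of replicates differed by a chi-square of at least 5.51 per degree of freedom, so none was counted as a repeat.

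Counts were tested in R 4.3.3 with edgeR 4.0.16 (filterByExpr on the groups, 13375 genes kept; TMM; robust quasi-likelihood) in an additive model of background and isoliensinine. A model with a mean per group gave the effect in each background and the interaction. Calls are at an adjusted p under 0.05 (Benjamini-Hochberg, all tested genes). Levels are TMM-scaled CPM. SE is the absolute log2 fold change over the square root of F, and intervals are at 95%. Scripts were tested on simulated data. Alternatives were DESeq2 1.42.0, limma 3.58.1 on log2(FPKM + 1) and log2(FPKM + 0.1), other scalings, filters and thresholds, thinning, a replicate block, and leaving out libraries or backgrounds.

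Genes were named by a rule: those called with the same sign in every background (0 genes), members of lists called likewise (0 genes), 20 fixed genes and 6 by interaction p; the others were named after their values were seen. The samples, the 36 lists and the fixed genes were chosen with earlier results of these data known. The protocols state poly-A selection and do not state strand, so overlapping genes are uncertain. Some genes that the rules or lists would name are not reported here.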

Additional observations from a re-analysis of the deposited data

Results flagged for a closer look

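Some genes had replicates fully separated in opposite directions in 2 backgrounds. They were looked for only among the named genes, and the share over all tested genes was not counted. Egr1, Junb, Mef2d, Rras2, Acss2 and Phlda1 were chosen by their interaction p, which favours such separation. Over all 18 libraries with the filter on low counts and no replicate block, the interaction test of edgeR called 0 of the separated genes. Egr1 differed by -0.45 (B_I minus Blank), -0.36 (H_I minus H2O2) and 0.57 (D_I minus Dox) on the log2 scale, with an interaction adjusted p of 0.07312, and from 1.812e-07 to 0.7058 over 30 alternative settings; with no filter on low counts it was 0.00104, and with a replicate block 0.0007978. Junb differed by -0.19 in B_I and 0.49 in D_I, and Mef2d by -0.42 in H_I and 0.22 in D_I. Rras2 differed by 0.42 in B_I and -0.27 in D_I, Acss2 by 0.54 in B_I and -0.33 in D_I, and Phlda1 by -0.55 in B_I and 0.58 in H_I. The interaction adjusted p of each was 0.7339 by edgeR, and 27 or 28 of 30 alternative settings gave no call for each. By DESeq2 it ran from 0.0274 for Mef2d to 0.03101 for Junb. By limma Phlda1 was at 0.04924 and 0.03507 with pseudocounts of 1 and 0.1. Without the 4 libraries that stood apart, edgeR gave 0.003922 for Junb, 0.005878 for Rras2, 0.04024 for Acss2, 0.04396 for Mef2d and 0.1966 for Phlda1. Ccl5 differed by 0.98 in H_I and -0.92 in D_I (interaction adjusted p = 0.7339). Tfeb differed by -0.13 in H_I and 0.22 in D_I (interaction adjusted p = 0.8811). Groups of 3 were not tested for a library far from the others.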

How the results depend on the processing

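The pooled count stayed at 0 under every alternative, including each library left out in turn (0 to 0), except without all 4 libraries that stood apart (5 called, 5 with the same sign). Under that setting the counts in the untreated, peroxide and doxorubicin backgrounds and for the interaction were 53, 58, 184 and 143. DESeq2 gave 1, 81, 18 and 11, and leaving out B_I replicate 3 and Blank replicate 4 gave 3, 17, 21 and 9. With no filter on low counts there was 1 call in the untreated background, 2 with doxorubicin, 1 for the interaction and 3 in pairs of backgrounds. Interaction calls numbered 1 and 2 by limma with pseudocounts of 1 and 0.1. Leaving out H_I replicate 1 and H2O2 replicate 3 gave 1 call with doxorubicin, and the 6 libraries of D_I and Dox alone gave 263. With a replicate block the pooled count was 0, and there were 2 calls with peroxide, 4 with doxorubicin, 3 for the interaction and 1 in a pair of backgrounds. The samples share only a number, with correlations of their deviations from -0.112 to 0.279. Blank replicate 4 was the only library with its number. The block thus fitted that library exactly, and it did not inform the fold changes under this setting. Single libraries left out gave 0 to 4, 0 to 10, 0 to 4 and 0 to 1. The cause of these moves was not tested. A count of the same sign in every background has no value when a background is left out.

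Some pooled log2 fold changes of single genes changed sign. With a replicate block Ddit3 was at -0.052, Ccl2 at -0.082 and Cdkn2a at 0.038. Without B_I replicate 3 and Blank replicate 4, Ddit3 was at -0.031 and Ccl2 at -0.082. Without H_I replicate 1 and H2O2 replicate 3 Hmgcs1 was at -0.074, and at -0.077 without all 4 libraries. Without the untreated background Cdkn1a was at -0.015, Ddit3 at -0.049 and Cdkn2a at 0.026. Without the peroxide background Myh11 was at -0.16 and Hmgcs1 at -0.20. Without the doxorubicin background Cd274 was at -0.075, Tfeb at -0.085, Ddit3 at -0.071, Ccl5 at 0.38, Ccl2 at -0.093, Pvr at -0.044, Cdkn2a at 0.043, Glb1 at -0.0026 and B2m at -0.14. As the mean of 3 contrasts Ccl5 was at 0.0027. Over single libraries left out, Ddit3 ran from -0.041 to 0.12, Ccl2 from -0.097 to 0.24, Cdkn2a from -0.065 to 0.042, Tfeb from -0.011 to 0.071, B2m from -0.020 to 0.049 and Icam1 from -0.075 to 0.52.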
